A study of Mus musculus with 14 samples.

Results

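The genes of sugar breakdown and of the response to low oxygen were read as a module of 32 named genes on arrays of mouse helper T cells. The module held 4 glucose and lactate transporters, 13 glycolytic enzymes, 4 regulators of glycolytic flux, 3 genes of oxygen sensing and 8 genes that hypoxia induces. Members were taken by symbol from the array annotation. They had 68 probe sets (groups of probes that read 1 transcript), among 45101 probe sets for 18193 genes in all. Each gene was read on its probe set of highest mean signal. A probe set of its own was found for 31 members, and all 31 passed the filter on low signal. Eno1, an enolase, was not analysed here. The probe sets used were not chosen for any difference between arrays, and 12 of the 31 genes had a single probe set.

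The study inhibited Trpm4, an ion channel that calcium opens to sodium and potassium, and asked which transcripts changed. Mouse T cells had been driven for 2 weeks in culture towards Th1 (the interferon-gamma producing helper lineage) or Th2 (the lineage of interleukin 4, 5 and 13). Each lineage was hybridised on 7 Affymetrix arrays, 1 for each of 7 treatments, 14 arrays in all. The treatments were a retrovirus carrying dominant negative (DN) Trpm4 at 12 h of stimulation, its empty vector at 12 h, the same retroviruses at 4 h, Trpm4 siRNA, Thy1 siRNA, and no treatment. The control siRNA was itself directed at a T cell surface gene, so no array held an siRNA without a target. The labels give no stimulus, strain, number of animals or duration of the siRNA treatment, and no stimulation for the siRNA and untreated cells. Each condition was 1 array. Where a test used the pair of arrays in a set (Trpm4 inhibited and its control) as repeats, its p measured only the spread between these arrays.

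Signals summed to between 7324678 and 10608719 per array, and the median signal lay between 19.9 and 28.3. The values below are quantile normalised signals, on a linear scale, and differences are in log2 of the signal plus 16, which shrinks the differences of dim genes. A signal of 25.9 was the median of all probe sets. One probe set's level cannot be set against another's. The Th1 list of 5 marker genes summed to 4196 to 13166 deposited signal in Th1 arrays and 470 to 3471 in Th2 arrays, and the Th2 list to 351 to 1856 in Th1 arrays and 2982 to 24158 in Th2 arrays. Ifng was the brightest gene of the Th1 list. In the siRNA arrays Ifng and Il12rb2 were higher in Th1, but Tbx21, Cxcr3 and Il18rap were higher in Th2. With Trpm4 and Thy1 siRNA, Tbx21 read 462 and 447 in Th1, against 862 and 830 in Th2. Il18rap read 459 and 495 in Th1, against 667 and 782 in Th2. Macrophage and dendritic cell markers (6 genes) summed to 152 to 240.0 in Th1 arrays and 237 to 426 in Th2 arrays, with none at 0. CD8 T cell and NK cell markers (5 of 6 genes measured) summed to 82.8 to 770 in Th1 arrays and 80.0 to 1106 in Th2 arrays. These markers did not go one way. Eomes read 118 and 110 in Th1 siRNA arrays, against 951 and 840 in Th2 siRNA arrays, but Cd8a read 144 and 143 against 71.4 and 88.65. In the untreated arrays Gzmk read 363 in Th1 and 4.22 in Th2, Cd8a 281 and 94.05, and Ncr1 100.3 and 12.9. Cd8b1 (20.3 and 77.5) and Eomes (6.42 and 13.9) were higher in untreated Th2. Fibroblast markers (6 genes) summed to 87.1 to 128 in Th1 arrays and 123 to 304 in Th2 arrays, and among them Pdgfrb read 2.96 to 6.46 in Th1 retrovirus arrays and 94.9 to 178 in Th2 retrovirus arrays. B cell markers (5 of 6) summed to 79.0 to 165 in Th1 arrays and 108 to 243 in Th2 arrays, and erythroid markers (4 of 6) to 39.7 to 66.5 in Th1 arrays and 45.9 to 67.1 in Th2 arrays. The part of these cell types in the results was not tested. The T cells are bulk samples, in which fewer cells of a type and less RNA per cell cannot be told apart.

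The arrays were of 2 kinds. On 6 of them, both Th1 arrays at 4 h and all 4 Th2 retrovirus arrays, the 3′ end of the Gapdh control transcript was 5.43 to 5.91 log2 units brighter than its 5′ end. On the other 8 (both Th1 arrays at 12 h, the siRNA arrays and the untreated arrays) the ratio was -0.25 to 0.04. The Actb control transcript split the arrays in the same way, with 3.96 to 4.85 on the first kind and 0.05 to 0.47 on the other. The Tfrc control transcript did not separate them, with 2.13 to 3.09 and 1.47 to 2.91. Probe sets far from the 3′ end of a transcript tend to read low on arrays of the first kind. The Th1 to Th2 comparison in siRNA arrays, the same at 4 h, and the time course of Th2 cells lie within 1 kind. The Th1 to Th2 comparison at 12 h and the time course of Th1 cells set 1 kind against the other, and there the kind of array and the condition cannot be told apart.

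Glucose enters T cells through Slc2a1 and Slc2a3 and is split to pyruvate by the glycolytic enzymes. Activated T cells turn much of the pyruvate into lactate through Ldha and export it through Slc16a1 and Slc16a3, even when oxygen is present. Hif1a, the oxygen-regulated subunit of the transcription factor HIF-1, raises many of these genes. The prolyl hydroxylases Egln1 and Egln3 mark Hif1a for destruction and are themselves HIF targets. Pfkfb3 and Pfkfb4 set the level of an activator of phosphofructokinase, Pdk1 holds back the entry of pyruvate carbon into the TCA cycle, and Pygl releases glucose from glycogen.

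**Figure D1:**
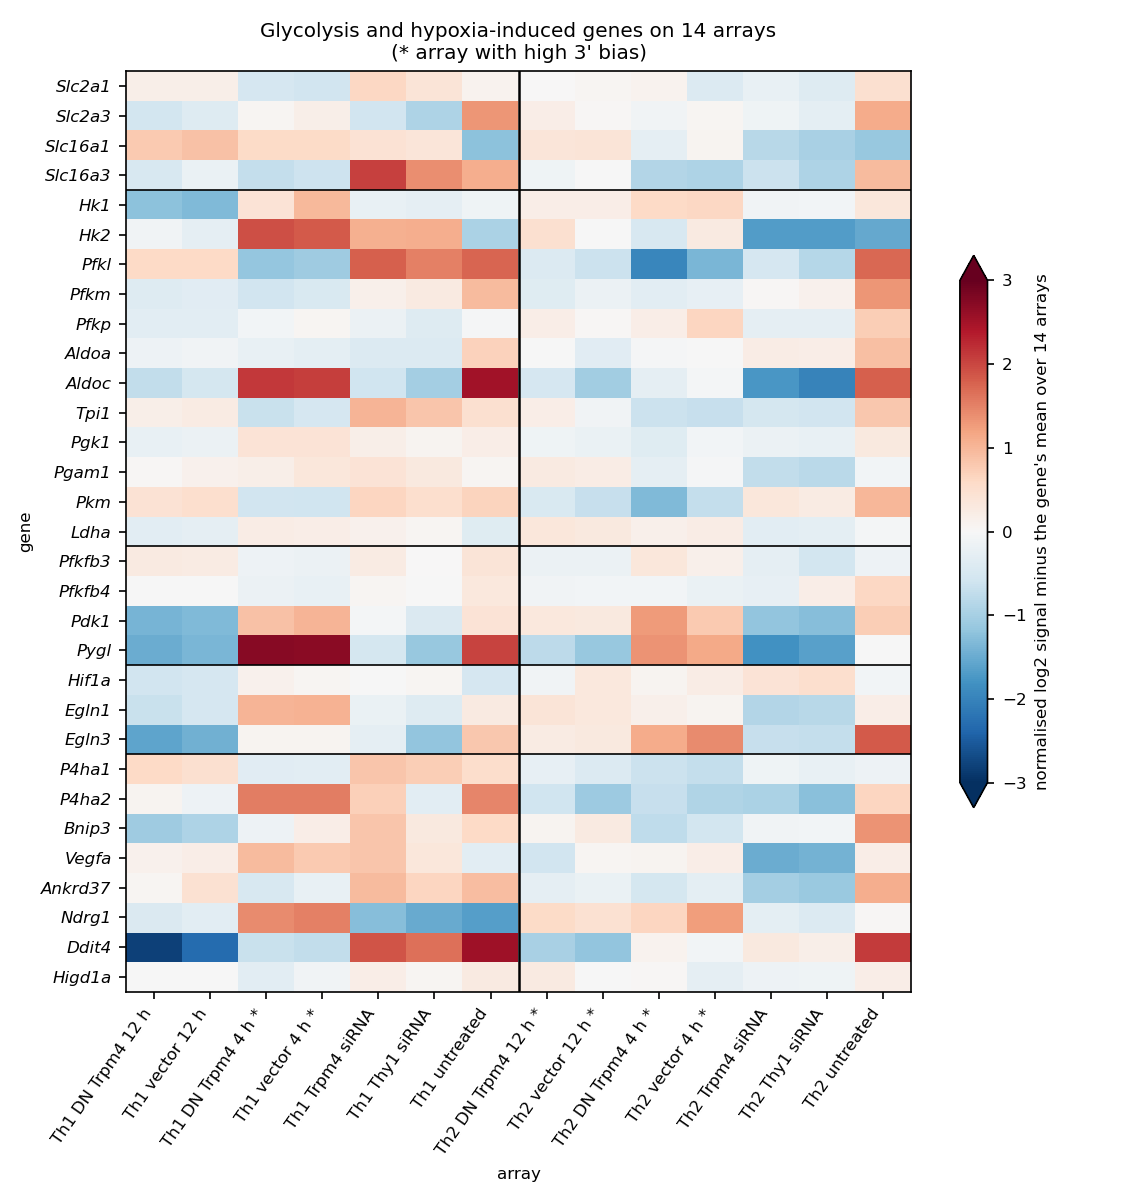
Normalised log2 signal of 31 genes (rows, ordered by role) on 14 arrays (columns, Th1 left of Th2), each gene given as the difference from its own mean over the 14 arrays; red is above the mean and blue below, and an asterisk marks the 6 arrays with high 3′ bias. Pygl and Aldoc are red in the Th1 arrays at 4 h and in the untreated Th1 array and blue in the siRNA arrays, and Ldha and Higd1a are pale throughout.

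Members differed widely in how far they moved over the 14 arrays, as the heat map of all members shows. The log2 signal of Ddit4, a stress-induced inhibitor of mTORC1, spanned 5.33 units. That of Pygl, the liver-type glycogen phosphorylase, spanned 4.55, and that of Aldoc, an aldolase, 4.52. The span was 3.75 for Pfkl, a phosphofructokinase subunit, 3.62 for Hk2, the inducible hexokinase, and 3.41 for Egln3. At the other end it was 0.61 for the mitochondrial gene Higd1a, 0.70 for Ldha and 0.78 for Pgk1, a phosphoglycerate kinase. The spans include the difference between the 2 kinds of array.

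Across all 7 pairs of a Th1 and a Th2 array with the same treatment, 5 members were higher and 1 was lower in Th1 cells. The pairs cannot be taken as independent repeats, since all but the untreated one come from sets whose arrays correlated at 0.988 to 0.995. The p of this test, and counts such as 7 of 7 pairs, therefore do not measure the spread between independent cultures. In this comparison 3.65% of all 29467 probe sets tested passed as higher and 6.14% as lower. The members' median difference was 0.17 log2 units, and that of all probe sets 0.01.

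P4ha2, a prolyl hydroxylase subunit that modifies collagen, had a lowest, median and highest signal of 50.8, 119 and 224 in Th1 cells, against 18.9, 28.1 and 113 in Th2 cells. The groups overlapped, but Th1 exceeded Th2 in 7 of 7 pairs by 0.67 to 2.45 log2 units (log2 difference 1.39, SE 0.24, adjusted p = 0.00691). P4ha1, the other catalytic subunit of the family measured here, had 328, 610.2 and 758 in Th1 cells, against 245, 350.3 and 379 in Th2 cells. It too was higher in 7 of 7 pairs (log2 difference 0.73, SE 0.13, adjusted p = 0.00779).

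Pfkl had 92.2, 353 and 824 in Th1 cells, against 46.6, 139 and 782 in Th2 cells, with a spread inside each lineage wider than the difference between them. It was higher in Th1 in 7 of 7 pairs, though by only 0.03 in the untreated pair (log2 difference 1.15, SE 0.29, adjusted p = 0.0344). Aldoc had 58.4, 88.6 and 841 in Th1 cells, against 21.3, 89.6 and 505 in Th2 cells and was higher in 6 of 7 pairs (log2 difference 1.10, SE 0.29, adjusted p = 0.0407). Slc16a1, a lactate transporter, had 231, 845 and 1050.4 in Th1 cells, against 248, 462 and 735 in Th2 cells and was also higher in 6 of 7 pairs (log2 difference 0.68, SE 0.18, adjusted p = 0.0416). Egln3 had 169, 439 and 950.5 in Th1 cells, against 318, 657 and 1955 in Th2 cells and was the member that fell in Th1, in 6 of 7 pairs (log2 difference -1.0, SE 0.25, adjusted p = 0.0347). The exception was the Trpm4 siRNA pair, where Th1 was higher by 0.41. Of these 6 genes, 4 had further probe sets, all with the same sign as the one used. With the mean of all probe sets of a gene the difference was 0.69 for Pfkl and 0.67 for Aldoc, which then did not pass.

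These calls depend on the pairing and on the arrays. Both 12 h pairs set a Th1 array of low against a Th2 array of high 3′ bias, so there lineage and kind of array cannot be told apart. Without the pair as a block, and in the 3 pairs of low 3′ bias alone (chosen after the data were seen), 0 members passed with limma. Leaving out 1 pair left 3 members without the Thy1 siRNA, Trpm4 siRNA, vector 4 h or DN Trpm4 12 h pair, 2 without the DN Trpm4 4 h or vector 12 h pair, and 5 without the untreated pair. The calls of P4ha1 and P4ha2 each held in 17 of 19 alternative settings, and those of the other 4 genes in 6 to 10 of 19.

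The windows from 250 bases before to 50 bases after the transcription start of 4 of these genes are shown. P4ha2, Pfkl and Aldoc had the largest differences among the members higher in Th1, and Egln3 was the only member lower in Th1. Regulation by HIF was not a criterion in this choice and was not tested. The core of the HIF binding motif, ACGTG or GCGTG on either strand, is in capitals. The sequences are from RefSeq, build GRCm38.p6, read 5′ to 3′ on the strand of the gene, and these genes were chosen after their values were seen.
P4ha2, chr11:54100674-54100973, plus strand: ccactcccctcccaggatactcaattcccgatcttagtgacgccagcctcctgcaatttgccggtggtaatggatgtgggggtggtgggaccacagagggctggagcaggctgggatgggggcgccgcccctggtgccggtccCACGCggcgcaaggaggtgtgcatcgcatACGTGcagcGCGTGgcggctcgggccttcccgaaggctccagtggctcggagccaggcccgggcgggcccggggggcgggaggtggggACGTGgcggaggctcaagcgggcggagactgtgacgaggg
Pfkl, chr10:78009758-78010057, minus strand: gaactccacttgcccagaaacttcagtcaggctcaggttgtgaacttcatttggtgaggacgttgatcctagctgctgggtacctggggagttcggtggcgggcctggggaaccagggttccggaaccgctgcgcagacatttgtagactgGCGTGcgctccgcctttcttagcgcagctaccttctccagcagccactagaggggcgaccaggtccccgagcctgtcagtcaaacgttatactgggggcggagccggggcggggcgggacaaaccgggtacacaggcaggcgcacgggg
Aldoc, chr11:78322823-78323122, plus strand: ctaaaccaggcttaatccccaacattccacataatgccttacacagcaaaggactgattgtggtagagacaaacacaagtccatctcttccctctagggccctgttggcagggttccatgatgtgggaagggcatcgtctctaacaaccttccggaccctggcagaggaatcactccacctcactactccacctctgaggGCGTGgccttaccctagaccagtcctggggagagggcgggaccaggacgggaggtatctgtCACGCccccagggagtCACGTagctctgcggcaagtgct
Egln3, chr12:54203825-54204124, minus strand: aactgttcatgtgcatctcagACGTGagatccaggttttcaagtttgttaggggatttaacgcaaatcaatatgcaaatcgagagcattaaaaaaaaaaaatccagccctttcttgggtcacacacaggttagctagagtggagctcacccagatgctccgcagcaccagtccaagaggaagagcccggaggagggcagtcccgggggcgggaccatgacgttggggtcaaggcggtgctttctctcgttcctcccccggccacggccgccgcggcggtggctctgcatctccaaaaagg

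P4ha2 held 4 capital stretches, Aldoc 3, and Pfkl and Egln3 1 each. P4ha1 and Slc16a1, which also passed as higher but are not printed, held 3 and 5 matches. With Egln3 as the only lower gene, these counts cannot show whether the motif goes with the direction. Windows were matched for 30 of the 32 members, with several starts for some, 44 windows in all. The motif was in 37 of the 44 windows (84.1%), against 43.8% of all 32851 windows and 59.5% of the 13497 windows of genes tested on these arrays. The module was chosen as glycolysis and hypoxia-induced genes, so its share is no independent result about HIF. The 44 windows include those of Eno1, which was not analysed, and overlapping windows of neighbouring starts of the same gene. The sequence CACGTG reads as the motif on both strands. The match counts of P4ha1 and Slc16a1 take such a sequence once per strand, whereas in capitals it forms 1 stretch, so the counts and stretches are not the same unit. In the shares of windows each window counts once. Member windows were richer in G and C, with a median of 65.0% against 60.0% in windows of tested genes. A match describes these letters only and does not show binding.

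**Figure D2:**
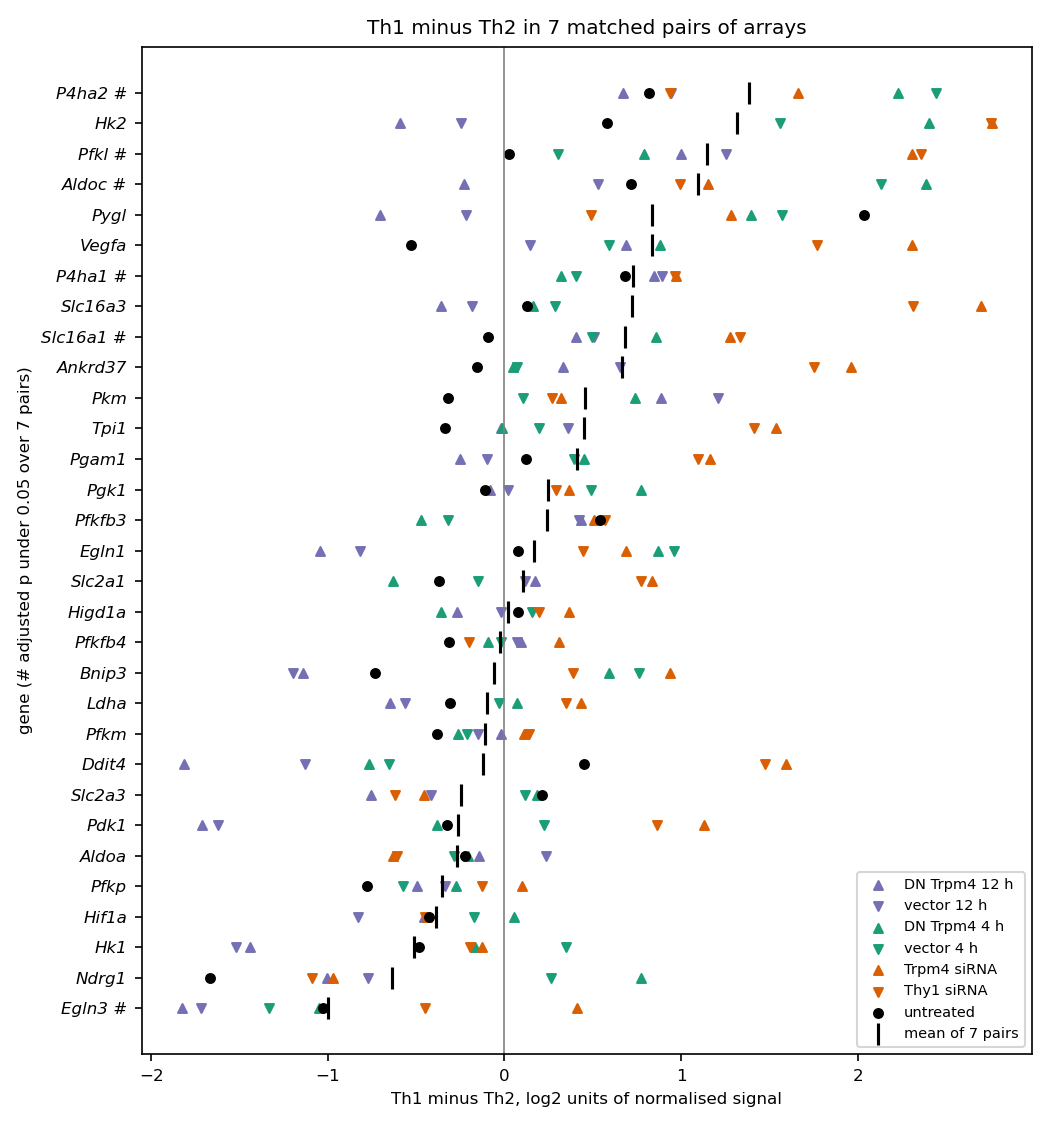
Th1 minus Th2 difference in log2 units of normalised signal (horizontal axis) for 31 genes (rows, ordered by the mean) in 7 matched pairs of arrays, 1 symbol per pair, with a bar at the mean of the pairs. The siRNA pairs lie to the right for Hk2, Slc16a3 and Ddit4, and the 12 h pairs lie to the left for Pdk1, Egln1, Ddit4 and Egln3.

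The pairs did not move together, as the plot of the 7 pairs shows. The members' median Th1 minus Th2 difference was 0.84 in the Trpm4 siRNA pair (26 of 31 above 0) and 0.49 in the Thy1 siRNA pair (23 of 31). It was 0.16 in the DN Trpm4 pair at 4 h and 0.22 in the vector pair at 4 h. It was -0.25 in the DN Trpm4 pair at 12 h, -0.10 in the vector pair at 12 h and -0.16 in the untreated pair. The median of all probe sets lay between -0.06 and 0.02 in these pairs. Each set was therefore also read by itself.

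In the siRNA arrays, which were all of low 3′ bias, 19 of 31 members were higher and 4 were lower in Th1 cells. The background was 17.2% of all probe sets higher and 16.2% lower. The members' median difference was 0.66, against 0.00 for all probe sets. By role, 3 of 4 transporters, 6 of 12 enzymes, 3 of 4 flux regulators, 1 of 3 oxygen sensing genes and 6 of 8 hypoxia-induced genes were higher. In the signals that follow, the first value of a lineage is from the array with Trpm4 inhibited and the second from its control.

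Hk2, which phosphorylates glucose after entry, had 1979 and 1996 in Th1 cells, against 279 and 282 in Th2 cells (log2 difference 2.76, SE 0.21, adjusted p = 1.59e-06). Slc16a3, the lactate exporter of highly glycolytic cells, had 639 and 397 in Th1 cells, against 84.7 and 66.9 in Th2 cells (log2 difference 2.51, SE 0.19, adjusted p = 1.42e-06). Pfkl had 824 and 669.8 in Th1 cells, against 154 and 118 in Th2 cells (log2 difference 2.33, SE 0.19, adjusted p = 2.41e-06). For all 3 genes both Th1 arrays stood several-fold above both Th2 arrays on the probe sets used, and the mean of the 3 Pfkl probe sets gave 1.35. Tpi1, triosephosphate isomerase, had 3281 and 2900.2 in Th1 cells, against 1118 and 1080.0 in Th2 cells (log2 difference 1.48, SE 0.13, adjusted p = 4.39e-06), and Pgam1, a phosphoglycerate mutase, was also higher (1.13). Slc16a1, Aldoc and Pdk1 were higher by 1.31, 1.07 and 1.0, although the second, dimmer Aldoc probe set differed by -0.36 and did not pass (adjusted p = 0.144). The Aldoc probe set used had 28.6 and 21.3 in Th2 siRNA cells, near the median of all probe sets.

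Of the hypoxia-induced genes, Vegfa, the vascular growth factor, had 151 and 104 in Th1 cells, against 17.8 and 19.3 in Th2 cells (log2 difference 2.04, SE 0.20, adjusted p = 9.65e-06). Its second probe set had 86.1 and 74.6 in Th1 cells, against 64.6 and 79.9 in Th2 cells, a difference of 0.13 that did not pass (adjusted p = 0.470), and the mean of both probe sets gave 1.08. Ankrd37, a small HIF target, had 104 and 81.0 in Th1 cells, against 14.8 and 12.8 in Th2 cells (log2 difference 1.86, SE 0.16, adjusted p = 3.76e-06). The probe sets used for both genes were below the median probe set in Th2 cells. Ddit4 had 1359 and 1166 in Th1 cells, against 439 and 409.9 in Th2 cells (log2 difference 1.53, SE 0.16, adjusted p = 1.73e-05). P4ha2 was higher by 1.30. The members that were lower in Th1 were Ndrg1, a stress-induced growth regulator, -1.03 (SE 0.17, adjusted p = 6.71e-04), Aldoa, the muscle-type aldolase, -0.62 (SE 0.12, adjusted p = 0.00207), Slc2a3 -0.54 (SE 0.14, adjusted p = 0.0119) and Hif1a itself -0.44 (SE 0.14, adjusted p = 0.0287). Hif1a had 3 other probe sets, of which 1 had the same sign and 2 the opposite one, and none of them passed.

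In the retrovirus arrays at 4 h, all of high 3′ bias, 12 members were higher and 3 lower in Th1 cells. The background was 13.9% higher and 14.1% lower, and the medians were 0.15 for members and 0.02 for all probe sets. P4ha2 had 223 and 224 in Th1 cells, against 35.2 and 28.1 in Th2 cells (log2 difference 2.34, SE 0.27, adjusted p = 5.08e-05). Aldoc had 637 and 614 in Th1 cells, against 109 and 127 in Th2 cells (log2 difference 2.26, SE 0.19, adjusted p = 4.07e-06). Both genes were several times brighter on each Th1 array than on each Th2 array.

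Hk2 had 3602 and 3348 in Th1 cells, against 667 and 1127 in Th2 cells (log2 difference 1.98, SE 0.21, adjusted p = 3.05e-05), and the pair of Th2 arrays differed from each other by more than the pair of Th1 arrays. Pygl had 554 and 542 in Th1 cells, against 200.4 and 172 in Th2 cells (log2 difference 1.48, SE 0.19, adjusted p = 1.06e-04). Egln1, the main oxygen sensor among the hydroxylases, was higher (0.91), and Vegfa (0.74), Slc16a1 (0.68), Bnip3, a mitophagy receptor (0.68), and Pgk1 (0.63) followed. Ndrg1 (0.52), Pgam1 (0.42) and P4ha1 (0.36) passed with smaller differences. Egln3 had 566 and 571 in Th1 cells, against 1187 and 1462 in Th2 cells and was lower in Th1 (log2 difference -1.19, SE 0.22, adjusted p = 0.00175). Ddit4 (-0.71) and Pfkfb3 (-0.40) were the other members lower in Th1. No further probe set of these 15 members had the opposite sign, but with the mean of all probe sets P4ha1 (0.30) and Pfkfb3 (-0.24) did not pass. The count of members was 9 without the Th1 vector array and 9 without the Th2 DN Trpm4 array, in place of 15.

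At 12 h the Th1 arrays were of low and the Th2 arrays of high 3′ bias, and 27.5% of all probe sets passed as higher and 29.8% as lower in Th1. Of the members, 7 were higher and 11 lower, with a median of -0.14 against -0.02 for all probe sets. Egln3 had 169 and 189 in Th1 cells, against 641 and 657 in Th2 cells (log2 difference -1.77, SE 0.22, adjusted p = 2.52e-05), and Pdk1 had 116 and 123 in Th1 cells, against 416 and 414 in Th2 cells (log2 difference -1.67, SE 0.16, adjusted p = 3.45e-06). Ddit4 (-1.47), Bnip3 (-1.17), Egln1 (-0.93), Ndrg1 (-0.89), Hif1a (-0.64), Ldha (-0.60), Slc2a3 (-0.59) and Pfkp (-0.42) were also lower in Th1 on the probe sets used. Pfkl (1.13), Pkm, the pyruvate kinase of these cells (1.05), P4ha1 (0.87), P4ha2 (0.81), Ankrd37 (0.49), Slc16a1 (0.46) and Pfkfb3 (0.43) were higher.

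Of the 18 genes that passed at 12 h, 11 had further probe sets and 8 of these had at least 1 of opposite sign, against 0 of 8 genes at 4 h. Hk1, the constitutive hexokinase, differed by -1.48 on the probe set used and by 2.78 on its other one. Pfkp differed by -0.42 on the probe set used and by 2.78 and -0.37 on the others. Slc2a3 differed by -0.59 on the probe set used and by -0.75, 1.86 and 1.63 on the others. Egln1 differed by -0.93 and 0.99, Hif1a by -0.64, -1.29, 0.17 and 0.03, and Ndrg1 by -0.89, -0.22, 0.80, 0.34 and 1.11. No direction is drawn for these 6 genes at 12 h. Pfkfb3 differed by -0.14 on its other probe set, and Pfkl by 1.15 and -0.04 on its others. P4ha1, P4ha2, Slc16a1, Pfkl, Ankrd37 and Pfkfb3 were higher in Th1 and passed at 12 h as well as in the siRNA arrays, on the probe sets used. P4ha1, P4ha2 and Slc16a1 were higher and passed at 4 h too, whereas Pfkfb3 passed as lower in Th1 at 4 h (-0.40).

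**Figure D3:**
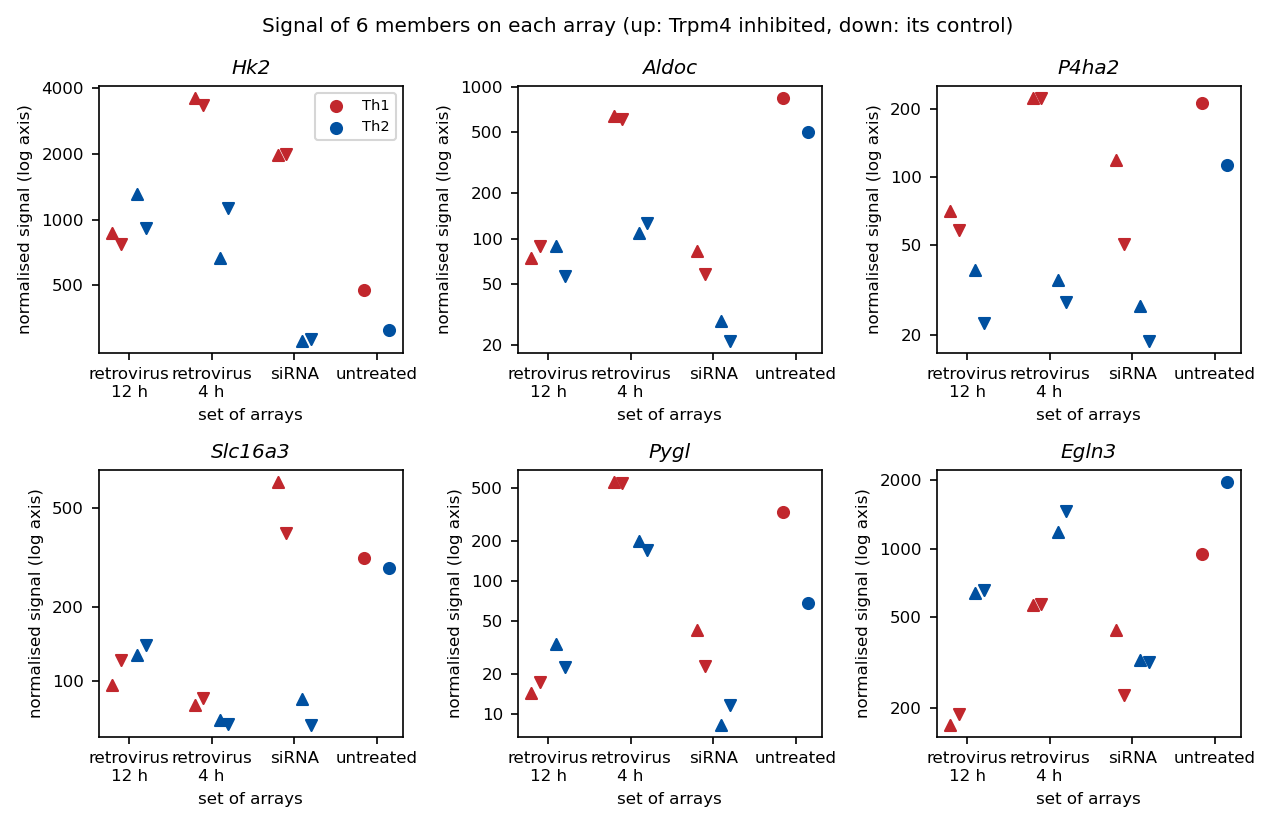
Normalised signal (vertical log axis) of Hk2, Aldoc, P4ha2, Slc16a3, Pygl and Egln3 on each array, by set of arrays (horizontal axis), with Th1 in red left of Th2 in blue; upward triangles are arrays with Trpm4 inhibited, downward triangles their controls and circles untreated cells. P4ha2 is brighter in Th1 in each set, whereas Hk2 and Pygl are brighter in Th1 in each set but the 12 h one.

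The plot of 6 members by array, chosen after their values were seen, shows how the sets differ. The untreated arrays, 1 per lineage, gave no test. Aldoc had 841 in untreated Th1 cells and 505 in untreated Th2 cells, and was brighter in Th1. Pygl had 332 in untreated Th1 cells and 68.7 in untreated Th2 cells. Egln3 was dimmer in Th1, with 950.5 in untreated Th1 cells and 1955 in untreated Th2 cells.

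The time course of Th2 cells lay within the arrays of high 3′ bias. Between 12 h and 4 h of stimulation 6 members rose and 5 fell, with 7.8% of all probe sets higher and 8.51% lower at 12 h and medians of 0.06 for members and 0.01 for all. Pygl had 33.6 and 22.8 at 12 h, against 200.4 and 172 at 4 h in Th2 cells (log2 difference -2.20, SE 0.19, adjusted p = 3.84e-05), so glycogen phosphorylase was several times dimmer on both later arrays. Ddit4 had 174 and 148 at 12 h, against 386 and 339 at 4 h (log2 difference -1.10, SE 0.16, adjusted p = 8.02e-04). Egln3 had 641 and 657 at 12 h, against 1187 and 1462 at 4 h (log2 difference -1.0, SE 0.22, adjusted p = 0.00902). Pdk1 (-0.72) and Aldoc (-0.61) fell too.

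Of the members that rose in Th2 cells, 3 were glycolytic enzymes, 2 were lactate transporters and 1 was Bnip3. Pfkl had 166 and 139 at 12 h, against 46.6 and 78.2 at 4 h (log2 difference 1.13, SE 0.19, adjusted p = 0.00202), and Tpi1 had 1845 and 1501 at 12 h, against 1021 and 989 at 4 h (log2 difference 0.72, SE 0.13, adjusted p = 0.00297). Slc16a3 had 128 and 141 at 12 h, against 70.0 and 67.4 at 4 h (log2 difference 0.83, SE 0.19, adjusted p = 0.012), with both 12 h arrays above both 4 h arrays. Bnip3 rose by 0.83, Slc16a1 by 0.47 and Pgam1 by 0.41. No other probe set of the 11 genes went the opposite way, and the mean of all probe sets gave 0.66 for Pfkl. The count was 6 without the Th2 vector array at 12 h and 7 without the DN Trpm4 array at 12 h or that at 4 h. Pygl, Ddit4, Pfkl and Tpi1 passed in 14 of 14 alternative settings.

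The same difference in Th1 cells crossed from arrays of high to arrays of low 3′ bias, and 28.3% of all probe sets were higher and 30.5% lower at 12 h. Of the members 7 were higher and 16 lower (medians -0.51 and -0.01). Pygl had 14.4 and 17.4 at 12 h, against 554 and 542 at 4 h in Th1 cells (log2 difference -4.15, SE 0.19, adjusted p = 6.78e-09), a fall below the median probe set. Aldoc had 74.0 and 88.6 at 12 h, against 637 and 614 at 4 h (log2 difference -2.72, SE 0.19, adjusted p = 1.87e-07), Pdk1 had 116 and 123 at 12 h, against 626 and 686 at 4 h (log2 difference -2.31, SE 0.16, adjusted p = 2.07e-07) and Hk2 had 864 and 769.9 at 12 h, against 3602 and 3348 at 4 h (log2 difference -2.07, SE 0.21, adjusted p = 4.64e-06). Pygl, Aldoc, Pdk1, Ddit4 (-1.86) and Egln3 (-1.58) were lower at 12 h in both lineages. On the probe sets used, also lower at 12 h in Th1 were Hk1 (-1.98), Ndrg1 (-1.83), Egln1 (-1.62), P4ha2 (-1.58), Bnip3 (-1.02) and Vegfa (-0.71).

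Pfkl had 348 and 353 at 12 h, against 92.2 and 100.1 at 4 h in Th1 cells (log2 difference 1.71, SE 0.19, adjusted p = 8.64e-06) and was higher at 12 h in both lineages, as was Tpi1 (0.80). Pkm (1.07), P4ha1 (0.87), Slc2a1 (0.72), Ankrd37 (0.61) and Pfkfb3 (0.42) were higher at 12 h in Th1. Probe sets of opposite sign were present for 5 of the 15 passing genes that had more than 1. Hk1 differed by 2.72 and Egln1 by 0.47 on the probe set not used, Vegfa by 0.80, Slc2a3 by -0.83, 1.57 and 1.41, and Ndrg1 by -1.54, -0.57, 0.03 and 0.06. No direction is drawn for these 5 genes here.

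**Figure D4:**
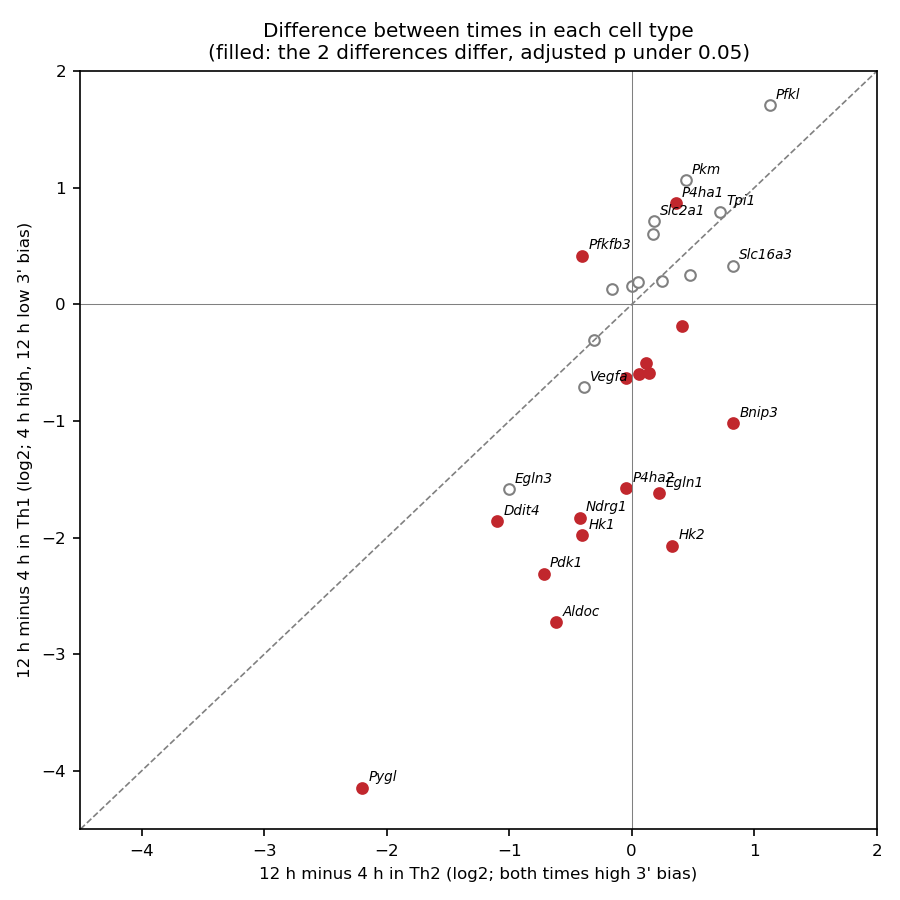
Difference between 12 h and 4 h in log2 units for 31 genes, in Th2 cells on the horizontal axis and in Th1 cells on the vertical axis, with a dashed line where both are equal; filled points passed the test of the difference between the lineages. Pygl lies lowest in both lineages, and Hk2, Egln1 and Bnip3 lie below 0 in Th1 and above 0 in Th2.

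The test of the difference between these time courses, shown in the plot of both lineages, passed for 2 members as more positive in Th1 than in Th2 and for 15 as more negative. The background was 20.3% of all probe sets more positive and 22.6% more negative in Th1, and the medians were -0.58 for members and -0.03 for all probe sets. Hk2 differed by -2.07 in Th1 and by 0.33 in Th2, a difference of -2.40 (SE 0.30, adjusted p = 6.72e-05). Aldoc differed by -2.11 (SE 0.27, adjusted p = 7.48e-05) and Bnip3 by -1.85 (SE 0.26, adjusted p = 1.27e-04). P4ha1 (0.51) and Pfkfb3 (0.82) were the members whose change was more positive in Th1. Of the 10 passing genes with more than 1 probe set, 6 had at least 1 of opposite sign, among them Hk1 (2.61) and Pfkfb3 (-0.06). Since only the Th1 arrays changed in 3′ bias between the times, lineage and kind of array cannot be told apart in this difference.

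Th1 cells at 12 h could be set against Th1 siRNA cells within arrays of low 3′ bias, but retrovirus, stimulation and culture differ together. Of the members 2 were higher and 15 lower at 12 h, against 22.7% higher and 25.1% lower of all probe sets, with medians of -0.33 and -0.05. Ddit4 had 38.0 and 59.0 at 12 h, against 1359 and 1166 in siRNA arrays (log2 difference -4.32, SE 0.16, adjusted p = 4.21e-09). Slc16a3 had 96.3 and 122 at 12 h, against 639 and 397 in siRNA arrays (log2 difference -2.06, SE 0.19, adjusted p = 3.69e-06). Bnip3 had 321 and 357 at 12 h, against 1252 and 858 in siRNA arrays (log2 difference -1.57, SE 0.18, adjusted p = 1.90e-05). Also lower at 12 h were Hk2 (-1.27), Pdk1 (-1.12), Pfkl (-1.05), Hk1 (-1.03), Egln3 (-0.77), Tpi1 (-0.71), Pygl (-0.59), Pfkm (-0.56) and Hif1a (-0.56). Ndrg1 (1.02) and Slc16a1 (0.43) were higher. Pfkl differed by -1.03 and 0.05 on its other probe sets, and by -0.67 on the mean of all 3. The call of Slc16a1 was lost without normalisation (0.09) and with arrays centred on their medians (0.11).

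The siRNA arrays, set against the untreated array of each lineage, gave 3 members higher and 19 lower, while 34.1% of all probe sets were higher and 29.3% lower and the medians were -0.47 for members and 0.04 for all. Each untreated group was 1 array, taken to vary like the others. Aldoc had 83.2 and 58.4 in Th1 siRNA cells, against 841 in untreated Th1 cells. In Th2 cells it had 28.6 and 21.3 with siRNA, against 505 untreated (log2 difference -3.50, SE 0.17, adjusted p = 1.08e-08). Slc2a3, the high-affinity glucose transporter, had 1096 and 867 in Th1 siRNA cells, against 4171 in untreated Th1 cells. In Th2 cells it had 1508 and 1339.5 with siRNA, against 3602 untreated (log2 difference -1.71, SE 0.12, adjusted p = 2.43e-07).

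Other members lower in siRNA arrays were Pygl (-2.28), Egln3 (-2.04), P4ha2 (-1.51), Ddit4 (-1.32), Pdk1 (-1.30), Pfkl (-1.25), Ankrd37 (-1.14), Pfkm (-0.99), Aldoa (-0.89) and Egln1 (-0.80). Hk2 (0.94), Slc16a1 (0.93) and Hif1a (0.53) were higher. Pfkl, Aldoa and Hif1a each had 1 other probe set of opposite sign, which differed by 1.09, 0.17 and -0.51. With the mean of all probe sets Pfkl differed by -0.47, and Hif1a by 0.27, which did not pass.

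The lineages behind these averages were not alike. Of the 19 members that passed as lower, 14 were lower than the untreated array of their lineage on all 4 siRNA arrays, and of the 3 that passed as higher, 2 were higher on all 4. The exceptions among the lower ones were Pfkl, Ankrd37, Bnip3, Tpi1 and Slc16a3. Pfkl had 824 and 669.8 in Th1 siRNA cells, against 797 in untreated Th1 cells, and 154 and 118 in Th2 siRNA cells, against 782 in untreated Th2 cells. Ankrd37 had 104 and 81.0 in Th1 siRNA cells, against 102 in untreated Th1 cells, and 14.8 and 12.8 in Th2 siRNA cells, against 116 in untreated Th2 cells. On the probe sets used, both genes were several times dimmer on the Th2 siRNA arrays, while the Th1 siRNA arrays lay near the untreated one. The other Pfkl probe sets did not show this contrast alike. The brighter one fell in both lineages, to 600.4 and 479 from 859 in Th1 and to 200.4 and 179 from 701 in Th2. The dimmer one rose in both, to 88.6 and 67.9 from 21.0 in Th1 and to 56.1 and 65.0 from 26.8 in Th2.

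Slc16a3 differed by 0.65 in Th1 and by -1.73 in Th2 (siRNA minus untreated, log2), Tpi1 by 0.45 in Th1 and -1.35 in Th2, and Bnip3 by -0.03 in Th1 and -1.43 in Th2. Hk2 had 1979 and 1996 in Th1 siRNA cells, against 474 in untreated Th1 cells, and 279 and 282 in Th2 siRNA cells, against 312 in untreated Th2 cells. Its higher average came from Th1 cells. Slc16a1 had 768 and 728 in Th1 siRNA cells, against 231 in untreated Th1 cells, and 307 and 279 in Th2 siRNA cells, against 248 in untreated Th2 cells. Vegfa, which did not pass on average, differed by 0.91 in Th1 and by -1.66 in Th2 on the probe set used. Its second probe set was higher with siRNA in both lineages. That one had 86.1 and 74.6 in Th1 siRNA cells, against 20.6 untreated, and 64.6 and 79.9 in Th2 siRNA cells, against 27.7 untreated. No direction is drawn for Vegfa in Th2 here. The differences between the lineages were not tested.

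Trpm4 inhibition changed 0 members at the threshold in each of 6 comparisons, and 0% of all probe sets passed in any of them with limma. At an unadjusted p under 0.05, 1733 probe sets and 1 member passed over all 6 pairs, and 3318 probe sets and 4 members passed in the 2 siRNA pairs. The other comparisons gave 928 probe sets and 1 member in Th1 pairs, 1824 and 0 in Th2 pairs, 1032 and 1 for the Th1 to Th2 difference of the effect, and 997 and 2 in the 4 DN pairs. The Trpm4 probe set itself read 58.4 with Trpm4 siRNA and 100.3 with Thy1 siRNA in Th1 cells, and 84.5 with Trpm4 siRNA and 133 with Thy1 siRNA in Th2 cells (deposited signal). In the DN arrays it read 516 against 75.3 for the vector in Th1 cells at 12 h and 119 against 70.5 in Th1 cells at 4 h. In Th2 cells it read 129 against 135 at 12 h and 128 against 117 at 4 h, so the construct was not seen as a higher Trpm4 signal there. The labels do not say whether the construct includes the sequence this probe set reads. Thy1 read 7254 with Trpm4 siRNA and 2735 with Thy1 siRNA in Th1 cells, and 4362 with Trpm4 siRNA and 937 with Thy1 siRNA in Th2 cells.

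**Figure D5:**
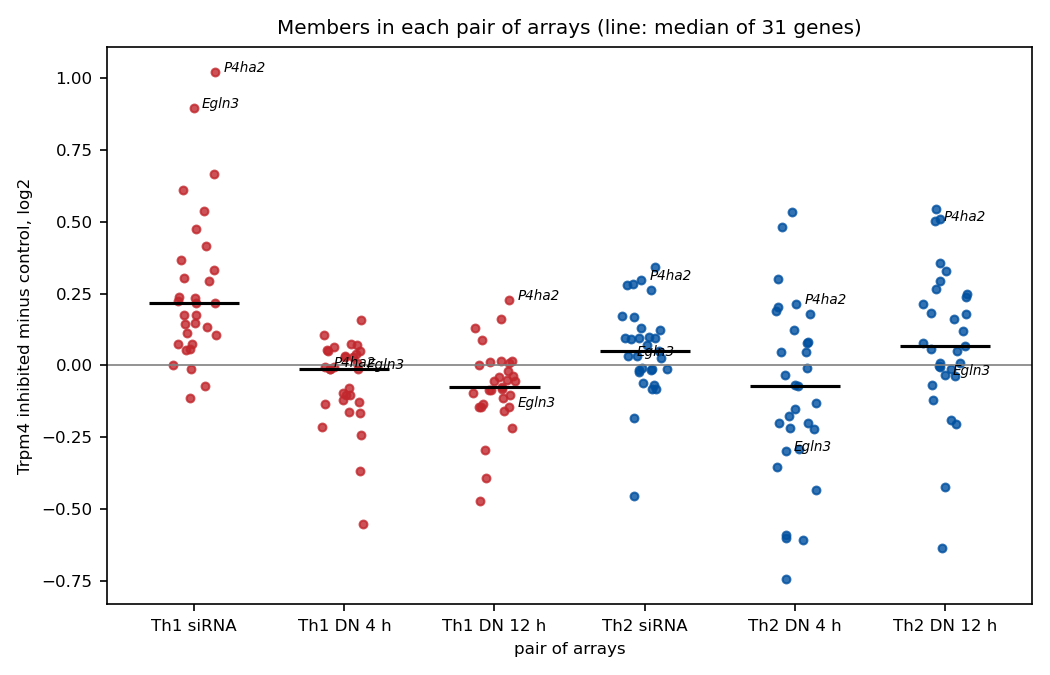
Trpm4 inhibited minus control in log2 units (vertical axis) for 31 genes in each of 6 pairs of arrays (horizontal axis), Th1 in red and Th2 in blue, with a bar at the median. In the Th1 siRNA pair 28 of 31 points lie above 0, with P4ha2 the highest, and the other pairs scatter around 0.

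The pairs are shown one by one in the plot of Trpm4 effects. The members' median was 0.22 in the Th1 siRNA pair, where 28 of 31 were higher with Trpm4 siRNA, and 0.05 in the Th2 siRNA pair (19 of 31). It was -0.08 in the Th1 DN pair at 12 h (8 of 31 above 0), -0.01 in the Th1 DN pair at 4 h (13 of 31), 0.07 in the Th2 DN pair at 12 h (20 of 31) and -0.07 in the Th2 DN pair at 4 h (12 of 31). The median of all probe sets lay between -0.01 and 0.01 in each pair. P4ha2 had 119 with Trpm4 siRNA and 50.8 with Thy1 siRNA in Th1 cells, and 26.8 with Trpm4 siRNA and 18.9 with Thy1 siRNA in Th2 cells.

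Over the 6 pairs P4ha2 differed by 0.38 (SE 0.12, adjusted p = 0.809), higher in 5 of 6, which did not pass. The next largest differences, none of which passed, were 0.16 (SE 0.08, adjusted p = 0.846) for Slc2a1, 0.15 (SE 0.10, adjusted p = 0.895) for Pygl and 0.14 (SE 0.11, adjusted p = 0.906) for Aldoc, whose second probe set differed by -0.02. In the 3 Th1 pairs the largest differences were 0.41 for P4ha2, 0.25 for Egln3, 0.18 for Vegfa and 0.17 for Pygl. In the 3 Th2 pairs they were 0.34 for P4ha2, -0.27 for Vegfa, 0.22 for Slc2a1 and -0.22 for Hif1a. Vegfa thus lay on opposite sides of 0 in the lineages, and the test of that difference did not pass (log2 difference 0.46, SE 0.20, adjusted p = 1). The same test gave 0.35 for Egln3, -0.23 for Ddit4 and 0.20 for Hif1a, none of which passed.

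In the siRNA pairs P4ha2 differed by 0.66 (SE 0.19, adjusted p = 0.412), Slc16a3 by 0.47 (SE 0.13, adjusted p = 0.409), Egln3 by 0.47 (SE 0.22, adjusted p = 0.517) and Aldoc by 0.34 (SE 0.10, adjusted p = 0.412), each higher with Trpm4 siRNA in both lineages, and none passed. The Egln3 difference came from Th1 cells, with 439 for Trpm4 siRNA and 228 for Thy1 siRNA, whereas Th2 cells had 326 and 318. The second, dim Aldoc probe set had 9.8 and 3.41 in Th1 cells, but 11.93 and 13.45 in Th2 cells, in the same order. In the DN pairs P4ha2 differed by 0.23, Ankrd37 by -0.23, Bnip3 by -0.23 and Vegfa by -0.17, and none passed (adjusted p = 0.9997 for each). Ankrd37 and Bnip3 were lower with DN Trpm4 in 4 of 4 pairs, P4ha2 was higher in 3 of 4 and Vegfa lower in 3 of 4. The siRNA and DN comparisons have 1 and 3 residual degrees of freedom, which limits the differences they can detect.

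Lists of related genes that are no members were read alongside. Of 31 other hypoxia and HIF pathway genes, 4 were higher and 6 lower in Th1 over the 7 pairs, with a median of -0.10. Epas1, the HIF-2 alpha subunit, differed by -5.93, Ero1a, an oxidase of the endoplasmic reticulum, by -2.18, and Plod2, a collagen lysyl hydroxylase, by 1.96. Bhlhe40, a transcription factor, differed by 1.51, Arnt2 by -1.51 and Cited2, an inhibitor of HIF transcription, by -1.31. Epas1 differed by -5.51 in siRNA arrays, -5.12 at 4 h and -7.49 at 12 h, so its Th1 signal was the lower one in each set. Its mean Th1 level at 12 h was 4.89 in log2, near the lowest possible value of 4 on this scale, so these differences depend on the 16 added. Of 17 other glycolysis and glycogen genes, 1 was higher, Adpgk (0.93), and 1 lower, Pdk4 (-1.35). Of 28 genes of the TCA cycle and respiratory chain, 0 were higher and 1 was lower, Ndufv1 (-0.56). Of all probe sets, 3.65% were higher and 6.14% lower over the 7 pairs.

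In siRNA arrays 7 of the 17 other glycolysis genes were higher and 3 lower in Th1 (median 0.07), among them Adpgk (1.34), Pgm1 (1.03), Gys1 (0.96) and Pdk4 (-1.19). Of the 31 other hypoxia genes 10 were higher and 9 lower (median 0.04), and of the 28 mitochondrial genes 6 and 1 (median 0.08). The share of all probe sets was 17.2% higher and 16.2% lower there. At 4 h the counts were 2 higher and 5 lower, 7 and 7, and 1 and 9 for the same 3 lists, against 13.9% and 14.1% of all probe sets. In the Th2 time course the counts were 1 and 2, 4 and 3, and 5 and 1, against 7.8% and 8.51% of all probe sets. Pdk4 (-1.79), Hmox1, heme oxygenase (-1.14) and Cycs, cytochrome c (0.67) were the genes that moved most in each list. The shares of all probe sets for siRNA against untreated are given above with that comparison. In the siRNA against untreated comparison, 14 mitochondrial genes were higher and 5 lower (median 0.25), led by Uqcrc2 (1.36) and Cycs (1.12), while 3 of the other glycolysis genes were higher and 8 lower (median -0.24).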

How the data were processed

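The deposited table holds the authors' intensity for each probe set on a linear scale, 1 array per condition. How the authors summarised probes and scaled arrays is not stated in the labels or the table. The annotation, from GEO's platform table, gave 1 gene for 34958 of 45101 probe sets, several for 932 and none for 9211. Entrez identifiers of 34754 were in the gene table, and 0 symbols differed there. The 64 control features were not tested.

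Signals were quantile normalised over 14 arrays and log2 was taken after adding 16. A probe set above the median of its array in at least 2 arrays was kept, 29467 in all. Linear models were fitted in limma 3.58.1 (R 4.3.3; lmFit, then eBayes). Tests were two-sided and adjusted over all kept probe sets by Benjamini-Hochberg, with 0.05 as the threshold. Th1 minus Th2 over 7 pairs and the Trpm4 comparisons had the matched pair as a block. The other comparisons came from 1 fit with 8 groups (lineage by set of arrays) and 6 residual degrees of freedom, in which the arrays of a set stood as repeats. The arrays of a set correlated at 0.988 to 0.995. The labels do not say that arrays came from separate cultures or animals, so p-values may measure technical spread.

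Members, lists and tests were chosen with earlier results of these data known. Named are members that passed, up to the 12 with the largest change in each direction, or the 4 with the largest difference where fewer than 4 passed, and up to 6 genes per related list. The scripts were tested on simulated data. The number of arrays limits the precision.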

Additional observations from a re-analysis of the deposited data

Results flagged for a closer look

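The change between 12 h and 4 h differed between Th1 and Th2 cells for 17 members, by the test of the difference itself. Every one of these values crosses the 2 kinds of array, since the Th1 arrays at 12 h have low 3′ bias and the other arrays compared have high bias, so kind of array and lineage cannot be told apart. In log2 units, Th1 minus Th2, the difference was -2.40 for Hk2, -2.11 for Aldoc, -1.94 for Pygl, -1.85 for Bnip3, -1.84 for Egln1, -1.59 for Pdk1, -1.57 for Hk1, -1.53 for P4ha2 and -1.41 for Ndrg1. It was -0.76 for Ddit4, -0.74 for Slc2a3, -0.66 for Pgk1, -0.62 for Ldha, -0.59 for Pgam1 and -0.58 for Hif1a. It was 0.51 for P4ha1 and 0.82 for Pfkfb3. For Hk1, Egln1, Ndrg1, Slc2a3, Hif1a and Pfkfb3 at least 1 other probe set had the opposite sign in this comparison, so no direction is drawn for these 6 genes.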

How the results depend on the processing

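Of 223 recomputed counts of members called, 208 were within 1.5 times the reported one and 15 were not. For Th1 minus Th2 over 7 pairs, 6 members passed as reported, 3 with the values as deposited, 0 with no pair block, 0 in the 3 pairs of low 3′ bias alone (chosen after seeing the data), and 2 to 5 when 1 pair was left out. For Th1 minus Th2 at 4 h the count was 15, and 9 to 17 with 1 array left out. For 12 h minus 4 h in Th2 it was 11, and 6 to 10 with 1 array left out. For Trpm4 siRNA minus Thy1 siRNA it was 0, and 1 (Slc16a3) with a variance trend, where 98 probe sets passed in all. The cause was not tested.

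Of 2225 recomputed values of single members, 2040 kept their direction and side of the threshold, 173 kept the direction but no longer passed, 1 came to pass and 11 changed sign. With the mean of all probe sets of a gene, Th1 minus Th2 at 12 h became 0.65 for Hk1, 0.029 for Egln1, 0.23 for Ndrg1, 0.54 for Slc2a3 and 0.66 for Pfkp. On the same setting 12 h minus 4 h in Th1 became 0.37 for Hk1 and 0.046 for Vegfa, and the difference between lineages 0.52 for Hk1 and 0.38 for Slc2a3. With 1 pair left out, Trpm4 inhibited minus control in Th1 ran between -0.078 and 0.44 for Egln3 and between -0.052 and 0.32 for Pygl, the lowest values being those without the siRNA pair. Leaving out a pair was not possible for the siRNA comparison, which has 2 pairs. Members near a signal of 25.9, the median, have little signal over background, which limits Pygl, Ankrd37, P4ha2, Vegfa and Aldoc where they are dim.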
